A study of Mus musculus with 12 samples.

Results

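The annexins are a family of calcium-dependent proteins that bind acidic phospholipids, and 9 mouse annexin genes are described here: Anxa1, Anxa2, Anxa3, Anxa4, Anxa5, Anxa6, Anxa7, Anxa8 and Anxa11. They were taken by symbol from the 55291 gene symbols counted in every library, and all 9 had enough counts to be tested among 18147 genes. The family was picked with results of these same libraries already known, so the levels, fold changes and calls of the 9 genes are a description, and p-values are given only for other genes. The partner and marker lists were also chosen with earlier results of these data known, which limits their p-values and counts as tests. RNA sequencing was done on 12 libraries in 4 groups of 3: marrow from mice transplanted with AML cells (marrow AML), marrow from mice that were not transplanted (marrow control), lung from transplanted mice (lung AML) and lung from mice not transplanted (lung control). AML is acute myeloid leukaemia, and the transplanted cells were Trp53(R172H/Δ), with 1 mutant and 1 lost copy of Trp53, a tumour suppressor gene. All 4 groups came from VECadCre-tdTomato mice, in which a Cre named for VE-cadherin goes with a red fluorescent reporter, and the labels name the cells as Vecad+ endothelial cells. Age, sex, time after transplantation and whether the Cre is inducible are not in the labels. Nothing in the labels says that the libraries of a group came from separate mice. The p-values therefore measure the spread among these samples only, and that spread may be technical.

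Total counts per library were 12.8 to 24.8 M in marrow AML, 17.0 to 21.8 M in marrow control, 26.2 to 39.2 M in lung AML and 24.1 to 28.6 M in lung control. The endothelial label was checked with 10 marker genes, which together took 0.0172 to 0.0228% of the counts in marrow AML, 0.00967 to 0.0163% in marrow control, 0.0225 to 0.0723% in lung AML and 0.176 to 0.563% in lung control. None of the 10 was at 0 in all 3 libraries of a group. Cdh5, the gene for VE-cadherin, averaged 0.634 ± 0.291 CPM (TMM-scaled counts per M counts) in marrow AML and 4.91 ± 1.51 CPM in marrow control (SD, n = 3 each). In lung it averaged 15.9 ± 14.4 CPM in AML and 188 ± 143 CPM in control (SD, n = 3 each). Pecam1, another endothelial surface gene, averaged 3.66 ± 3.73 CPM in marrow AML, 11 ± 3.36 in marrow control, 67.0 ± 47.6 in lung AML and 488 ± 350 in lung control (SD, n = 3 each). The list was split in marrow. At an adjusted p under 0.05 (edgeR), 1 of the 10, Esam (log2 1.71 ± 0.50, SE, groups overlapping), was higher in AML and 4, Cdh5 among them, were lower. Over all genes tested, 20.4% were higher and 23.5% lower by this rule. In lung AML, 5 of the 10 were lower (1.16% of all genes) and none higher. Lung epithelial genes took 19.9 to 22.1% of the counts in lung AML and 14.8 to 18.5% in lung control, and erythroid genes took 0.0155 to 0.246% in marrow AML and 1.25 to 1.48% in marrow control. The share of all endothelial transcripts was not estimated, and the annexin levels below are those of whole libraries. In such bulk samples, fewer cells of a type and less RNA per cell cannot be told apart.

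Every annexin shares a core of repeated calcium- and lipid-binding folds behind an N-terminal region that differs from member to member and sets its partners. Anxa1, a glucocorticoid-induced protein, is known for dampening inflammation through formyl peptide receptors, and Anxa2 joins the S100 protein S100a10 at the cell surface, where the pair binds plasminogen and its activator on endothelium. Anxa5 binds exposed phosphatidylserine and is used as a probe of dying cells. In human acute promyelocytic leukaemia, ANXA2 on the blasts is known for promoting fibrinolysis.

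Of the 9 genes, 7 had an entry in the RefSeq promoter table for GRCm38.p6. The 250 bases before the start in that table are shown for Anxa1, Anxa5 and Anxa2, which had the highest levels per kilobase of exon in marrow AML. These starts differ from the gene positions given below, which come from GENCODE. By those positions the Anxa1 window lies within the gene, and the Anxa2 and Anxa5 windows reach into it. Capitals mark a TATA box (TATAAA), a GC box (GGGCGG) or an AP-1 site (TGACTCA), each searched on both strands. The Anxa1 window is chr19:20390672-20390921 on the minus strand, the Anxa2 window chr9:69453433-69453682 on the plus strand and the Anxa5 window chr3:36475888-36476137 on the minus strand, each written 5′ to 3′.
Anxa1: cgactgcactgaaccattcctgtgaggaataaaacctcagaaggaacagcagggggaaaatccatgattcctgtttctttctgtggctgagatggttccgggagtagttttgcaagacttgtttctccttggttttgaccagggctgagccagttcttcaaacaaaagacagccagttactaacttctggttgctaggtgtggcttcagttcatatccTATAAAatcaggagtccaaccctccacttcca
Anxa2: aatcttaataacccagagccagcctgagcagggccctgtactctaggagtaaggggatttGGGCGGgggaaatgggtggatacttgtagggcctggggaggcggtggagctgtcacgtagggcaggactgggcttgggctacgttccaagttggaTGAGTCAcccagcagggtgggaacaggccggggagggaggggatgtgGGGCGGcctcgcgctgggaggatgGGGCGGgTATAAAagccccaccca
Anxa5: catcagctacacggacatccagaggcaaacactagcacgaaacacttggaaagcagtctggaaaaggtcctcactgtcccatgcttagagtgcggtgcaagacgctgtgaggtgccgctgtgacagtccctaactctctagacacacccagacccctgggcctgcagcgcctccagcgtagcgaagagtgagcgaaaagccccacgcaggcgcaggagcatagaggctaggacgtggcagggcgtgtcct
A TATA box stood in the Anxa1 window at base 219 and in the Anxa2 window at base 234, counted from the 5′ end, and 12.4% of 32851 promoter windows of the same length held one. The Anxa2 window also held 3 GC boxes, a motif in 32.7% of all windows, and 1 AP-1 site, a motif in 4.46%. None of the 3 motifs was in the Anxa5 window, although its GC content was 58.8%, against 62.4% in Anxa2, 46% in Anxa1 and a median of 52.4% over all windows. The hypoxia response core ACGTG, in 16.6% of all windows, was in those of Anxa2, Anxa5 and Anxa7, and the site of GATA factors written as AGATAA, held by 9.99%, was in an Anxa4 window. CCAAT (33.8% of all windows), TGACGTCA (1.55%), CCGGAAGT (2.88%) and the glucocorticoid response element (0.387%) were in no annexin window, which says only that these letters are not in these bases.

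In marrow, 7 of the 9 annexins were higher in AML than in control without overlap between the groups, and the same genes, Anxa1 to Anxa7, were called at an adjusted p under 0.05 by the edgeR quasi-likelihood test. Over all genes tested, 20.4% were called higher in marrow AML and 20.4% were higher without overlap. The members were chosen with this comparison known, so nothing is read from their count. The median fitted log2 fold change was 2.01 over the 9 annexins and -0.11 over all genes. In lung, none of the 9 was called, while 1.17% of all genes were called higher and 1.16% lower. No annexin had an unadjusted p under 0.05 in lung, where 2995 of all 18147 genes did. DESeq2 and limma-voom called 0 of the 9 as well, while DESeq2 called 719 genes higher and 913 lower and limma-voom 1001 and 1259.

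**Figure D1:**
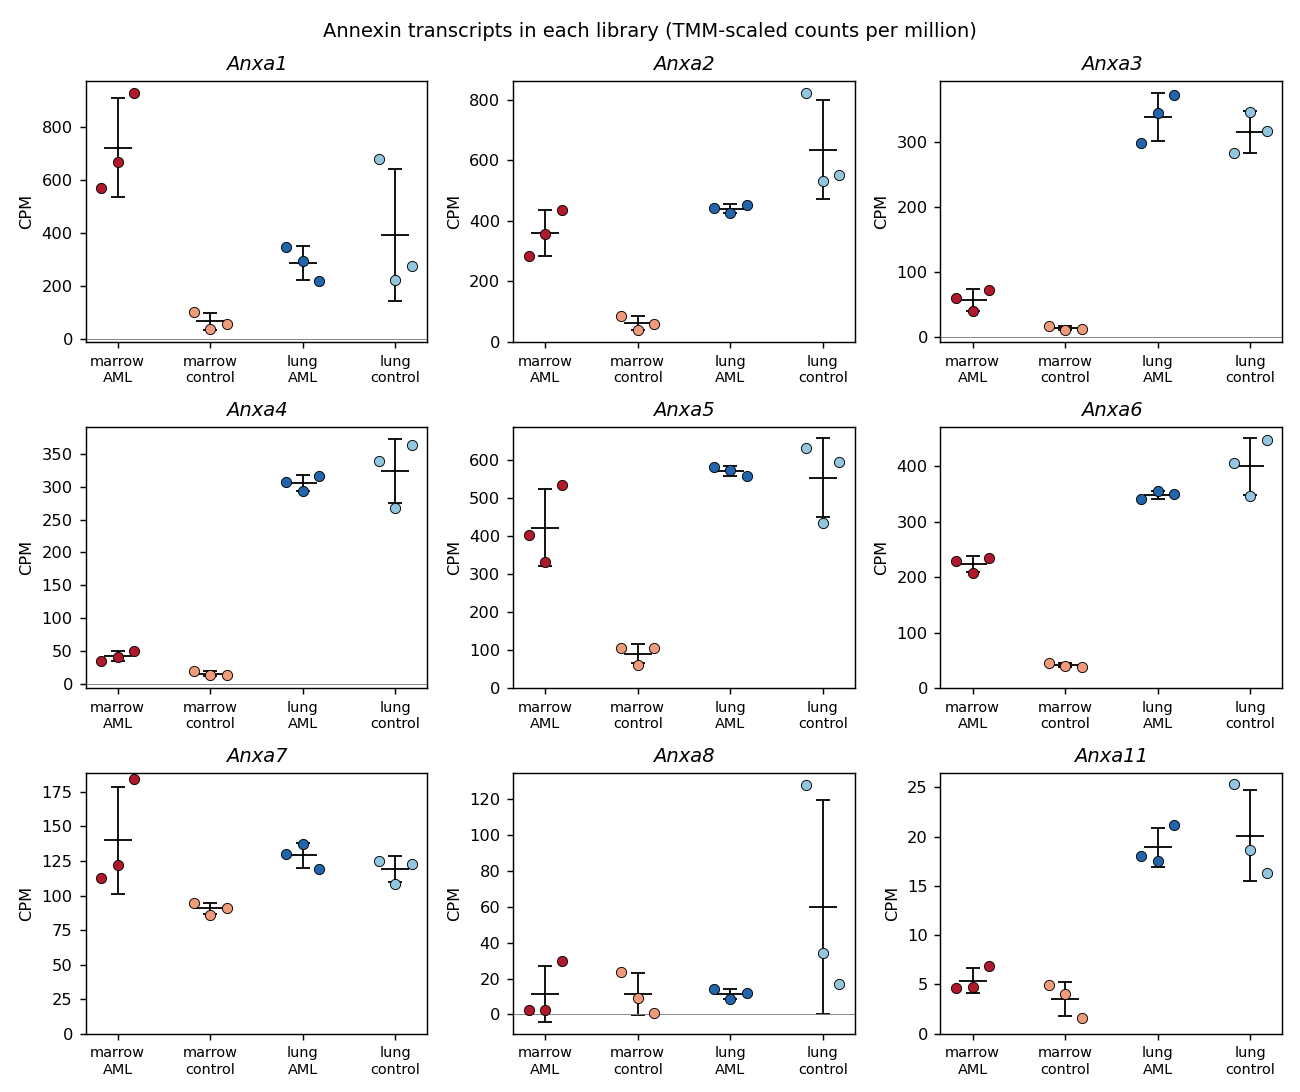
Level of each annexin gene in every library, in TMM-scaled CPM on a separate linear axis per gene, with points for single libraries and bars for the mean ± SD (n = 3). Anxa1 to Anxa7 have all 3 marrow AML points above the marrow control points, while Anxa8 spreads widely within each marrow group.

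Anxa1, on chromosome 19 at 20373428 to 20390944 of GRCm38, was at 573, 669 and 930 CPM in marrow AML libraries 1, 2 and 3, against 105, 39.4 and 59.8 CPM in the marrow controls. Every marrow AML library was above every marrow control, with the highest value in AML library 3. The fitted log2 fold change was 3.41 ± 0.48 (SE), the largest of the 9 genes. In lung, Anxa1 was at 347, 295 and 222 CPM in AML and 680, 226 and 277 CPM in control. The lung groups overlapped and lung control 1 stood high. The lung log2 fold change of -0.45 ± 0.44 became 0.18 without lung control 1. By mean, the order of groups ran from marrow AML (724 ± 185 CPM, SD, n = 3) over lung control (394 ± 249) and lung AML (288 ± 62.9) to marrow control (68.0 ± 33.5). Marrow AML overlapped lung control, lung control overlapped lung AML, and marrow control stood below all of them.

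Anxa2, at 69453620 to 69491795 of chromosome 9, had 284, 357 and 436 CPM in marrow AML and 85.4, 39.3 and 57.1 CPM in marrow control. The marrow groups were far apart, with a log2 fold change of 2.57 ± 0.29. In lung it had 442, 425 and 452 CPM in AML and 823, 533 and 550 CPM in control. All 3 lung AML libraries were below the lung controls (log2 -0.53 ± 0.28, not called). Over all genes, 16.8% were lower in lung AML without overlap.

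Anxa5, at 36448923 to 36475894 of chromosome 3, had 401, 332 and 534 CPM in marrow AML, against 105, 60.2 and 106 CPM in marrow control. The groups did not overlap, and the log2 fold change was 2.22 ± 0.26. In lung the groups overlapped, with 582, 573 and 557 CPM in AML and 632, 435 and 594 CPM in control (log2 0.04 ± 0.25).

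Anxa6, whose protein has a duplicated annexin core and is known for organising cholesterol and membrane domains, lies at 54979108 to 55033445 of chromosome 11. It was at 229, 208 and 235 CPM in marrow AML and at 45.0, 39.3 and 37.9 CPM in marrow control. The marrow groups did not overlap, and the log2 fold change of 2.46 ± 0.15 had the smallest SE of the 9. In lung, 342, 356 and 350 CPM in AML overlapped 407, 346 and 447 CPM in control (log2 -0.20 ± 0.14).

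Anxa3 and Anxa4 had the largest differences between lung and marrow controls. Anxa3, on chromosome 5 at 96793339 to 96845966, had 60.8, 39.8 and 72.9 CPM in marrow AML and 18.1, 11.4 and 13.4 CPM in marrow control. In lung it had 299, 345 and 373 CPM in AML and 284, 347 and 317 CPM in control. The marrow groups did not overlap (log2 2.01 ± 0.24), the lung groups did (0.10 ± 0.23), and both lung groups were above both marrow groups. Anxa4, at 86736840 to 86793584 of chromosome 6, showed the same order, with 34.8, 41.1 and 50.1 CPM in marrow AML and 19.2, 12.7 and 13.5 CPM in marrow control. Its lung levels were 307, 293 and 317 CPM in AML and 340, 268 and 363 CPM in control, and its log2 fold change was 1.47 ± 0.20 in marrow and -0.08 ± 0.20 in lung.

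Anxa7, first described as a protein that aggregates secretory granules, lies at 20455260 to 20480133 of chromosome 14. It had 113, 122 and 184 CPM in marrow AML and 94.7, 86.2 and 91.0 CPM in marrow control. The groups did not overlap, but AML libraries 1 and 2 were close to the controls, and the log2 fold change was 0.63 ± 0.18. The value dropped to 0.38 without marrow AML 3, and its call was lost without marrow control 2 (log2 0.59) and with limma-voom (log2 0.51). In lung, 130, 137 and 119 CPM in AML overlapped 125, 108 and 123 CPM in control. Anxa7 was the most even annexin across the groups, with means of 140 ± 38.8, 90.6 ± 4.25, 129 ± 9.11 and 119 ± 9.59 CPM in marrow AML, marrow control, lung AML and lung control (SD, n = 3 each).

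Anxa8 and Anxa11 were the annexins with no call in marrow. Anxa8, at 34085981 to 34100571 of chromosome 14, had 2.40, 2.56 and 29.5 CPM in marrow AML and 23.9, 8.99 and 1.08 CPM in marrow control. A single library set the level of marrow AML, and the marrow controls were spread from 1.08 to 23.9 CPM. The log2 fold change of 0.03 ± 1.12 became -2.20 without marrow AML 3, 1.19 without marrow control 1 and -0.52 without marrow control 3. In lung it had 14.3, 8.60 and 11.8 CPM in AML and 128, 34.5 and 16.9 CPM in control. The lung AML libraries were all below the controls (log2 -2.37 ± 1.16), and the difference was -1.15 without lung control 1.

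Anxa11, whose long N-terminal region is known in human for tethering RNA granules to lysosomes, lies at 25842156 to 25886804 of chromosome 14. It was low, at 4.6, 4.74 and 6.84 CPM in marrow AML and 4.93, 4.02 and 1.56 CPM in marrow control, and the groups overlapped (log2 0.62 ± 0.40). In lung it had 18, 17.5 and 21.2 CPM in AML and 25.3, 18.6 and 16.3 CPM in control. Counting ignored the strand, and 113 exon bases of Anxa11 overlap its antisense gene Anxa11os, so reads there cannot be assigned to either gene. Anxa11os had 0, 12 and 85 counts in marrow AML, the last being 43.4% of the Anxa11 count of that library, and 3, 0 and 1 counts in marrow control. Smaller exon overlaps, of 98, 112 and 75 bases, touch Anxa2, Anxa3 and Anxa4.

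**Figure D2:**
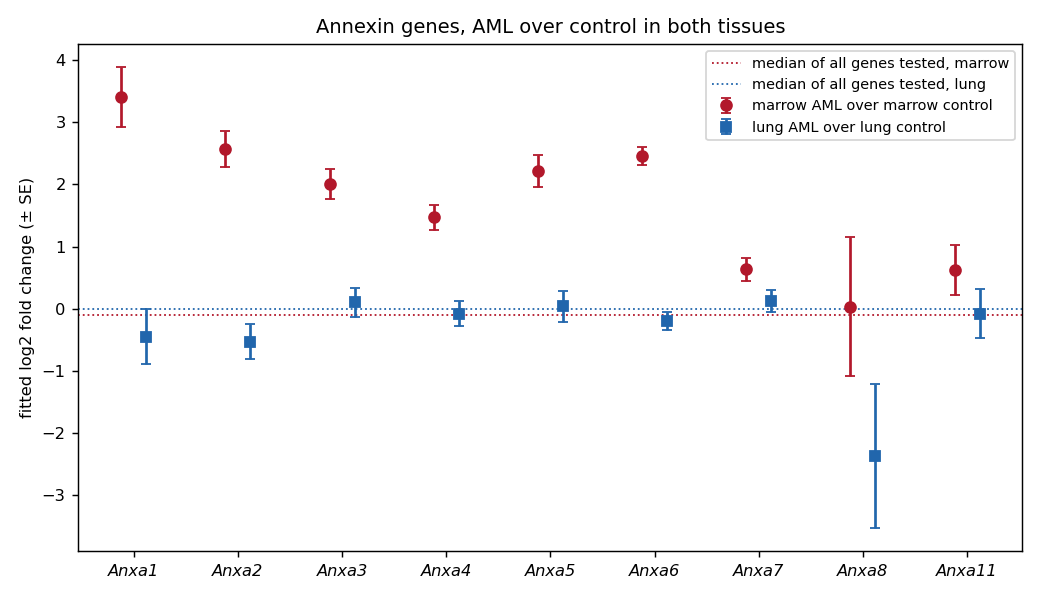
Fitted log2 fold change of each annexin (points, ± SE) for marrow AML over marrow control and for lung AML over lung control, with dotted lines at the median of all genes tested. The marrow values of Anxa1 to Anxa6 lie between 1.47 and 3.41, and the lung values of the same genes between -0.53 and 0.10.

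The AML effect in marrow was set against that in lung as an interaction, which compares all 4 groups. Its log2 value was above 0 in 9 of 9 annexins and was called in 6, Anxa1 to Anxa6, where 14.6% of all genes were called higher. The largest difference of the 9 was 3.87 ± 0.64 for Anxa1, followed by 3.10 ± 0.40 for Anxa2, and the median was 2.18, against -0.09 over all genes. Both AML effects use their own controls, and no library is shared between them.

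In control mice, marrow was lower than lung in all 9 annexins, 8 of them without overlap (40.5% of all genes) and 7 called (34.7% of all genes). Anxa3 and Anxa4 differed most, by log2 -4.46 and -4.42, followed by Anxa2 at -3.39 and Anxa6 at -3.30. Anxa7 (log2 -0.39) and Anxa8 (log2 -2.40) were not called by edgeR, while DESeq2 called both and limma-voom called Anxa7. Lung epithelial genes took 14.8 to 18.5% of the counts in lung control and 0.0386 to 0.231% in marrow control. Monocyte and macrophage genes took 2.63 to 3.11% in lung control and 0.00845 to 0.044% in marrow control. The part of such cell types in the annexin difference between tissues was not tested. With marrow AML in view, Anxa2, Anxa5, Anxa7 and Anxa8 overlapped a lung group, while Anxa3, Anxa4, Anxa6 and Anxa11 were lower in marrow AML than in either lung group. Anxa1 in marrow AML was above lung AML without overlap, and overlapped lung control.

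Levels of different genes were compared only per kilobase of exon. In marrow AML, Anxa1 (249 ± 63.5 CPM per kilobase) and Anxa5 (238 ± 57.6) led and overlapped, with Anxa2 at 96.2 and Anxa6 at 76.5. In marrow control Anxa5 led at 50.9 ± 14.7 and Anxa1 was at 23.4. In lung AML Anxa5 was at 321, Anxa6 at 119, Anxa2 at 118 and Anxa1 at 98.9 CPM per kilobase, and in lung control Anxa5 was at 311, Anxa2 at 170, Anxa6 at 136 and Anxa1 at 136. The makeup of the family therefore differed between groups. Anxa1 made up 34.7% ± 2.67 of the family's per-kilobase signal in marrow AML, 16.8% ± 3.67 in marrow control, 11.6% ± 2.34 in lung AML and 13.3% ± 5.45 in lung control (SD, n = 3 each). Anxa7 made up 3.24% ± 0.203 in marrow AML and 11.8% ± 2.80 in marrow control. The share of Anxa5 stayed between means of 32.4 and 38.2% in all 4 groups, and Anxa3 and Anxa4 together were small in marrow and larger in lung, at 11% ± 1.4 and 7.76% ± 0.394 in lung AML against 2.22% ± 0.469 and 1.27% ± 0.120 in marrow AML.

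**Figure D3:**
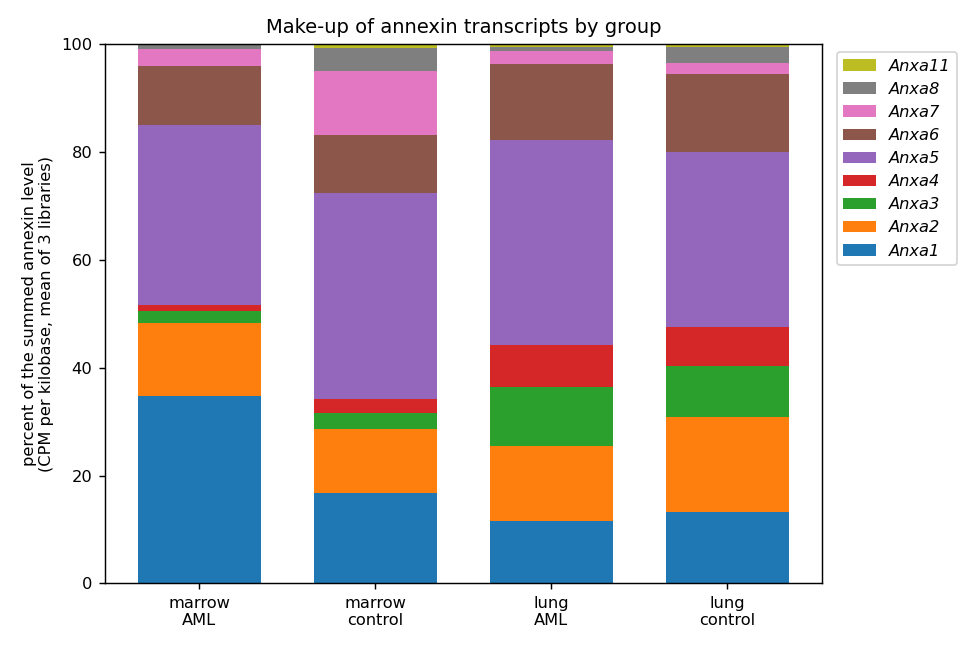
Share of each annexin in the family's level (CPM per kilobase of exon, mean of 3 libraries) in the 4 groups, stacked to 100%. Anxa1 fills 34.7% in marrow AML and 16.8% in marrow control, and Anxa5 between 32.4% and 38.2% in every group.

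Summed over the 9 genes, annexins took 0.206, 0.221 and 0.286% of the counts in marrow AML and 0.0494, 0.0280 and 0.0375% in marrow control. The groups did not overlap. In lung the sum was 0.229, 0.212 and 0.222% in AML and 0.329, 0.222 and 0.256% in control, and AML library 1 lay above control library 2. Within the 6 marrow libraries, Anxa1 to Anxa6 moved together (Pearson r of log2 CPM at least 0.96 for each pair), a figure that includes the difference between the AML and control groups. Within the 6 lung libraries, which also come from 2 groups, Anxa1 and Anxa3 ran against each other (r = -0.86), and Anxa2 and Anxa8 ran together (r = 0.96).

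Of the 3 other annexin genes, Anxa9 was at 17.8, 9.32 and 5.55 CPM in marrow AML and 11.8, 15.4 and 11.9 CPM in marrow control, and was higher in marrow control than in lung control (log2 2.29 ± 0.44, adjusted p = 0.000839, edgeR), the opposite of the 9 annexins above. Anxa13 had 28, 0 and 16 counts in marrow AML and 0 in each marrow control, at least 12.1-fold higher if the control group is set to a floor of 3 counts in all (adjusted p = 0.0312, edgeR), with overlap since 1 AML library was at 0. Anxa10 had 0, 37 and 62 counts in marrow AML and 2, 1 and 7 in marrow control (adjusted p = 0.126, edgeR). In lung it had 12, 6 and 5 counts in AML and 0 in each control, at least 6.98-fold higher with the same floor, and did not pass the test (adjusted p = 0.177, edgeR). Floors and bounds cover counting error only.

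Genes that bind annexins or act with them were listed by role, 46 genes in 5 lists, of which 36 were tested. In marrow AML, 22 rose and 5 fell, with a median log2 fold change of 1.58, against 20.4% of all genes called higher and 23.5% lower. In lung none rose and 1 fell, with 7 of 36 at an unadjusted p under 0.05, against 2995 of 18147 genes tested. DESeq2 called 1 partner higher and 3 lower in lung, and limma-voom called 2 higher and 5 lower. The median was -0.16. The interaction was called higher in 17 (14.6% of all genes) and lower in 3 (16.1%).

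The S100 proteins, small calcium sensors that dock on the N-terminal regions of annexins, include S100a10, the partner of Anxa2, which had the smallest p of its list. S100a10 was at 197, 182 and 135 CPM in marrow AML and 27.1, 21.9 and 31.6 CPM in marrow control, without overlap (log2 2.67 ± 0.24, adjusted p = 2.41e-05, edgeR). In lung AML it was at 94.5, 73.8 and 72.2 CPM, against 117, 135 and 83.1 CPM in lung control (log2 -0.48 ± 0.22, adjusted p = 0.315, edgeR). S100a11, which binds Anxa1, was at 167, 156 and 196 CPM in marrow AML and 28.4, 20.4 and 28.0 CPM in marrow control (log2 2.75 ± 0.26, adjusted p = 3.07e-05, edgeR). S100a6 rose as well (log2 3.32 ± 0.43, adjusted p = 0.000174, edgeR). S100a4 was called in marrow (log2 2.34 ± 0.81, adjusted p = 0.0358, edgeR) with overlap between the groups, and the call was lost without marrow control 2 (log2 1.95), marrow control 3 (1.91), marrow AML 1 (2.20), marrow AML 3 (2.03), lung AML 1 or lung AML 3 (2.34 each). Of 6 S100 genes, 4 rose in marrow AML, and S100a1 (log2 0.77) and S100b (log2 0.96) did not pass the test. In lung AML none of the 6 was called by edgeR. S100a11, at 106, 97.5 and 97.1 CPM in lung AML and 256, 170 and 120 CPM in lung control, was lower without overlap (log2 -0.86 ± 0.24, adjusted p = 0.0962, edgeR) and was called by DESeq2 and limma-voom and without lung control 3.

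Genes related to Anxa1 included the formyl peptide receptors, through which its N-terminal peptide acts. Fpr1 had 0, 100 and 41 counts in marrow AML and 0 in each marrow control, at least 38.8-fold higher with the same floor (adjusted p = 0.00838, edgeR). Fpr2 had 0, 16 and 2 counts and 0 in each marrow control, at least 4.96-fold higher (adjusted p = 0.0284, edgeR). Both were at 0 in marrow AML 1, so the groups overlapped, and limma-voom called neither (adjusted p = 0.0574 and 0.0897). Fpr2 also lost its call without any one of the marrow controls and without marrow AML 2. Fpr3 and the related genes Fpr-rs3, Fpr-rs4, Fpr-rs6 and Fpr-rs7 were at 0 in all 12 libraries. In lung, Fpr1 was at 9.20, 5.26 and 4.20 CPM in AML and 7.26, 2.84 and 5.77 CPM in control. Egfr, a receptor tyrosine kinase whose substrates include Anxa1, was at 32.4, 36.1 and 36.6 CPM in marrow AML and 10.4, 7.89 and 4.13 CPM in marrow control (log2 2.23 ± 0.34, adjusted p = 0.000431, edgeR). Trpm7, a channel kinase that phosphorylates Anxa1, fell in marrow AML, at 21.3, 51.5 and 25.5 CPM against 90.4, 87.7 and 54.0 CPM (log2 -1.24 ± 0.32, adjusted p = 0.00835, edgeR), and missed the threshold when the marrow libraries alone were fitted (log2 -1.08). Of the 5 tested genes, 3 rose and 1 fell, and Pla2g4a, a phospholipase that Anxa1 is known to inhibit, had a log2 fold change of -0.08 in marrow and -0.91 in lung (adjusted p = 0.233, edgeR).

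Of the 5 tested plasminogen system genes, 4 were called higher in marrow AML. Serpine2, a serine protease inhibitor, was at 1890, 2400 and 1750 CPM in marrow AML and 435, 259 and 428 CPM in marrow control (log2 2.43 ± 0.38, adjusted p = 0.000491, edgeR). Its groups did not overlap. Plgrkt, a plasminogen receptor, rose by 1.03 ± 0.21 (adjusted p = 0.00227, edgeR). Plat, tissue plasminogen activator, was at 27.6, 17.1 and 33.8 CPM in marrow AML and 10.9, 5.78 and 2.16 CPM in marrow control (log2 2.05 ± 0.55, adjusted p = 0.0107, edgeR), with an adjusted p of 0.221 by limma-voom. Serpinb2, another serpin, had 0, 90 and 0 counts in marrow AML and 0 in each marrow control, at least 24.8-fold higher with a floor of 3 counts (adjusted p = 0.0443, edgeR). Its call rested on marrow AML 2 alone, since without that library every marrow count was 0, and it was also lost with limma-voom (adjusted p = 0.174), without any one marrow control and without any one lung library. Plaur, the urokinase receptor, had a log2 fold change of 0.83 and did not pass. In lung AML none of the 5 was called, and Plat (log2 0.85) and Plaur (log2 -0.75) had the smallest p.

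Among membrane repair and calcium-binding partners, 4 of 10 tested genes rose in marrow AML and 3 fell. Ahnak, a giant scaffold that binds the Anxa2 and S100a10 complex, was at 162, 198 and 335 CPM in marrow AML and 43.3, 23.0 and 28.3 CPM in marrow control (log2 2.88 ± 0.30, adjusted p = 5.31e-05, edgeR). The calcium-dependent proteases went opposite ways. Capn2 was at 90.8, 100 and 201 CPM in marrow AML and 33.5, 19.2 and 28.3 CPM in marrow control (log2 2.27 ± 0.30, adjusted p = 0.000183, edgeR), and Capn1 was at 14.9, 13.1 and 8.83 CPM in marrow AML and 62.3, 71.4 and 35.8 CPM in marrow control (log2 -2.20 ± 0.29, adjusted p = 0.00018, edgeR). Myof, a ferlin of membrane fusion, rose by 2.56 ± 0.41 (adjusted p = 0.000541, edgeR). Sri and Pdcd6, calcium-binding proteins that interact with annexins, fell by 0.97 and 0.60 on the log2 scale. Plscr1, a phospholipid scramblase, was the single partner called in lung, at 35.5, 36.9 and 34.3 CPM in lung AML against 89.0, 107 and 67.8 CPM in lung control (log2 -1.30 ± 0.20, adjusted p = 0.0112, edgeR). In marrow it was at 114, 150 and 116 CPM in AML and 53.6, 62.7 and 77.0 CPM in control, the opposite direction (log2 0.97, adjusted p = 0.00242, edgeR). Dysf, a ferlin of membrane repair, averaged 5.31 ± 3.10 CPM in lung AML and 13 ± 5.87 CPM in lung control (SD, n = 3 each, log2 -1.29 ± 0.52, adjusted p = 0.241, edgeR). The Plscr1 lung call was lost without lung AML 1 (adjusted p = 0.06, edgeR) or lung AML 3 (adjusted p = 0.0619, edgeR).

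Of the 10 tested genes that expose or recognise phosphatidylserine, the lipid Anxa5 binds, 7 rose in marrow AML and 1 fell. Mfge8, a bridge between phosphatidylserine and phagocytes, was at 668, 694 and 1940 CPM in marrow AML and 128, 60.2 and 57.8 CPM in marrow control, with library 3 far above the rest (log2 3.75 ± 0.50, adjusted p = 0.000219, edgeR). Pros1 and Gas6, the ligands of TAM receptors, rose by 2.60 ± 0.29 and 1.58 ± 0.24 (adjusted p = 6.88e-05 and 0.000467, edgeR). Axl, a TAM receptor, was at 300, 189 and 478 CPM in marrow AML and 47.3, 11.4 and 20.9 CPM in marrow control (log2 3.60 ± 0.66, adjusted p = 0.00126, edgeR). Gas6 was also higher in lung AML without overlap, at 1120, 1120 and 1030 CPM against 608, 424 and 672 CPM in lung control (log2 0.94 ± 0.24, adjusted p = 0.0701, edgeR), and was called by DESeq2, limma-voom, with a filter of 5 CPM, in a fit of the lung libraries alone and without marrow control 1. Stab2, a scavenger receptor of sinusoidal endothelium, fell in marrow AML (log2 -2.91, adjusted p = 0.0468, edgeR). Stab1, its relative, was at 1.35, 11.8 and 3.79 CPM in lung AML against 26.6, 123 and 48.3 CPM in lung control, without overlap (log2 -3.55 ± 0.92, adjusted p = 0.0727, edgeR), and was called by DESeq2, by limma-voom and without marrow AML 3.

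**Figure D4:**
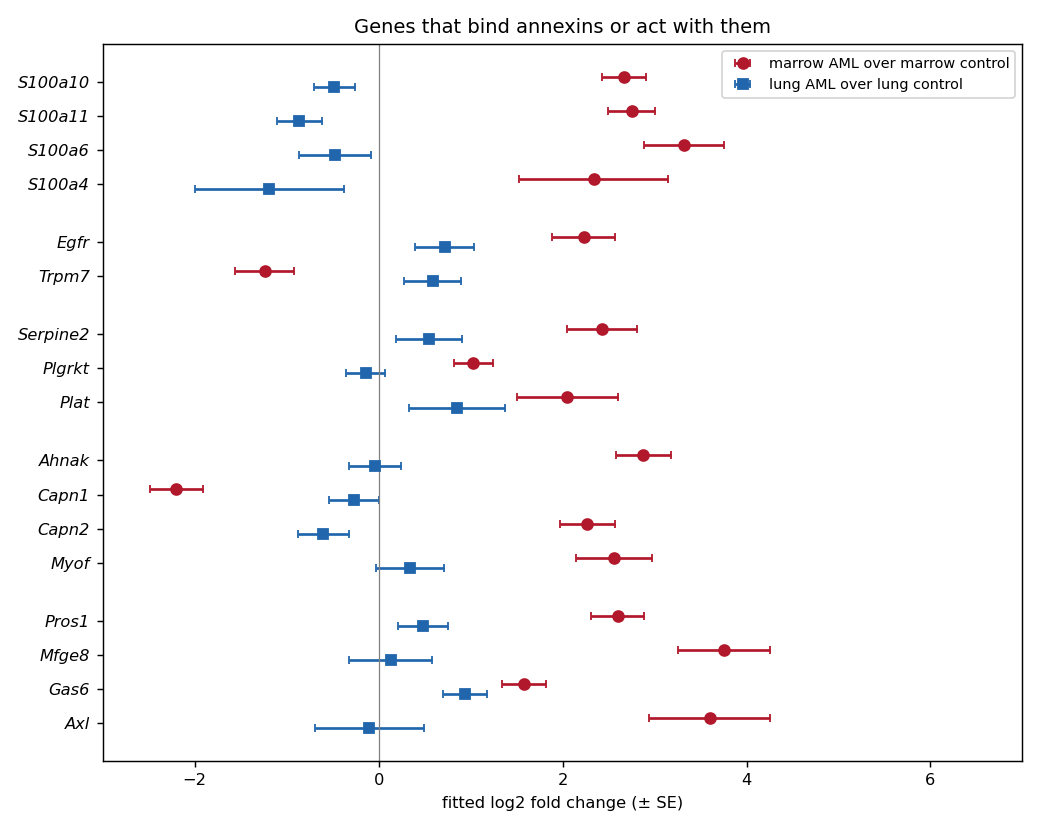
Fitted log2 fold changes (points, ± SE) of the partner genes with the smallest p of each list in marrow, leaving out genes with a group at 0 counts, for marrow AML over marrow control and for lung AML over lung control, grouped by list. Capn1 and Trpm7 lie below 0 in marrow, at -2.20 and -1.24, and the other marrow points drawn lie above it.

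Marker genes of other cell types moved beside the annexins in marrow, and their part in the annexin levels was not tested. Over all genes tested, 20.4% were called higher in marrow AML and 23.5% lower. All 7 pericyte and smooth muscle genes rose in marrow AML, where they summed to 0.480, 0.313 and 1.04% of the counts in libraries 1, 2 and 3, against 0.0177 to 0.0648% in marrow control. In lung they summed to 0.0293 to 0.0544% in AML and 0.0509 to 0.153% in control, with the top in lung control 1. Of 6 leukocyte genes 5 rose, and they summed to 0.00709 to 0.0136% in marrow AML and 0.00128 to 0.00302% in marrow control. The exception was Ptprc, which encodes the leukocyte surface protein CD45, at 0.129, 5 and 0.174 CPM in marrow AML against 7.86, 5.23 and 2.52 CPM in marrow control (adjusted p = 0.219, edgeR). All 9 erythroid genes fell. Stromal and osteolineage genes summed to 0.730 to 1.17% in marrow AML and 1.62 to 2.52% in marrow control, but the list was split. Of its 8 genes, Cxcl12 (log2 0.99), Lepr (1.70) and Kitl (2.32) rose without overlap, Col1a1, Col1a2, Bglap and Sparc fell, and Adipoq did not pass the test. Neutrophil genes summed to 0.00105 to 0.0180% in marrow AML and 0.00209 to 0.0335% in marrow control, with Ly6g at 0 in both. Of these, only Ltf was called in marrow, lower in AML with overlap (adjusted p = 0.0355, edgeR). In lung, neutrophil genes summed to 0.00967 to 0.0363% in AML and 0.00549 to 0.0132% in control. Mpo, Elane, Ltf, Ngp and Camp were higher in lung AML without overlap, S100a8 and S100a9 overlapped, and none was called (edgeR). Monocyte and macrophage genes summed to 0.00648 to 0.0329% in marrow AML and 0.00845 to 0.044% in marrow control. In lung they summed to 2.57 to 3.13% in AML and 2.63 to 3.11% in control. Of these 7 genes, 1 was called higher in marrow AML and none lower. Without marrow AML 3, the library highest in pericyte genes, the marrow log2 fold changes were 3.19 for Anxa1, 2.40 for Anxa2, 1.81 for Anxa3, 1.33 for Anxa4, 2.02 for Anxa5, 2.43 for Anxa6, 0.38 for Anxa7, -2.20 for Anxa8 and 0.41 for Anxa11. With all libraries Anxa7 was at 0.63, Anxa8 at 0.03 and Anxa11 at 0.62. Marrow AML 1 and 2, at 0.480 and 0.313% pericyte genes, were still above every marrow control. Leaving out marrow AML 3 therefore cannot test the part of pericyte genes in the annexin levels.

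The genes with patterns most like Anxa1, Anxa2 and Anxa3 were taken by the Pearson r of log2 CPM over the 12 libraries among 11269 candidates, and the libraries share tissue and treatment, so r is a description. For Anxa1 they were Tent5b (r = 0.98), Itpk1 (0.97) and Map1b (0.97). For Anxa2 they were Tpm4, Kctd11 and Ptms (0.99 each), and for Anxa3 Pard3, Tanc2 and Tgfbr2 (0.99 each). Tpm4, a tropomyosin of the actin cytoskeleton, averaged 369 ± 53.5 CPM in marrow AML, 61.5 ± 17.9 in marrow control, 395 ± 27.7 in lung AML and 520 ± 40.4 in lung control (SD, n = 3 each). Tgfbr2, a receptor of TGF-beta, averaged 64.1 ± 23.7 CPM in marrow AML, 23.9 ± 3.98 in marrow control, 283 ± 28.9 in lung AML and 233 ± 23.9 in lung control (SD, n = 3 each), the order Anxa3 has. Within the 6 lung libraries r fell to 0.63 for Tgfbr2 with Anxa3 and held at 0.98 for Kctd11 with Anxa2.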

How the data were processed

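Per the labels' protocols, total RNA came from a column kit for small samples, followed by low-input library kits. Per the submitters' processing notes, bcl2fastq, STAR and the mm10 build were used. Versions, annotation and counter: not given in the sources used here. Each deposited file is a table of raw counts by gene symbol, whole numbers that the authors did not normalise. The file names mark the counting as unstranded, so antisense and overlapping genes are uncertain. The files held 0 lines without a gene symbol. Depth is 12.8 to 39.2 M counts per library, and counting precision is limited for genes with few counts.

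Counts were tested in R 4.3.3 with the edgeR 4.0.16 quasi-likelihood F test, robust, on all 12 libraries with 4 groups (8 residual degrees of freedom), after the expression filter (minimum count 10, minimum total 15) that left 18147 genes, with TMM scaling. The TMM factors differed by group. They were 1.16 to 1.25 in marrow AML, 0.93 to 0.987 in marrow control, 0.865 to 0.925 in lung AML and 0.947 to 0.958 in lung control. A call is a Benjamini-Hochberg adjusted p, taken across all tested genes, under 0.05. CPM values are TMM-scaled, fold changes are fitted, and log2 values of single libraries used a prior count of 2. Gene positions and exon lengths come from GENCODE on GRCm38, and promoter windows from the RefSeq table. The script was tested on simulated counts with known changes in marrow AML and no difference between tissues. That test does not cover group differences as broad as those of these libraries. Alternatives were other scalings, filters, DESeq2 1.42.0, limma-voom (limma 3.58.1), a replicate block, the 6 libraries compared alone and leaving out each library. Figures were drawn with matplotlib 3.10.9.

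The members, the partner and marker lists and the tests were chosen with earlier results of these data known. Genes were named by a rule: all annexins, of each partner list up to 4 tested genes with the smallest p in marrow and up to 2 in lung, the 3 genes most like Anxa1, Anxa2 and Anxa3, and Cdh5, Pecam1 and Ptprc as identity checks. S100a1, S100b, Sri, Pdcd6, Stab2, Ano6, Esam, Fpr3 and its relatives and the 8 stromal markers are named beyond it to complete their lists, with their values seen. The neutrophil markers are named beyond the rule as well, with their values seen. A partner gene that was listed is not reported here and is in no count of the partner genes.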

Additional observations from a re-analysis of the deposited data

Results flagged for a closer look

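The difference between the AML effects in marrow and lung was itself tested as an interaction (edgeR quasi-likelihood test, adjusted p under 0.05). It was called in 6 annexins and in 20 of the 36 tested partner genes, 17 higher and 3 lower. Over all genes tested, 14.6% were called higher and 16.1% lower. The differences below are marrow minus lung on the log2 scale. For the annexins, chosen with these results known, they are a description: 3.87 for Anxa1, 3.10 for Anxa2, 1.91 for Anxa3, 1.55 for Anxa4, 2.18 for Anxa5 and 2.66 for Anxa6.

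Among S100 genes the difference was 3.15 for S100a10, 3.61 for S100a11, 3.80 for S100a6 and 3.54 for S100a4. It was 1.51 for Egfr, -1.83 for Trpm7 and 8.18 for Fpr1, a fitted value that depends on the prior count because the marrow controls were at 0. For the plasminogen system it was 1.87 for Serpine2 and 1.16 for Plgrkt. For the membrane repair partners it was 2.91 for Ahnak, 2.87 for Capn2, -1.93 for Capn1, 2.23 for Myof and 2.28 for Plscr1. For the phosphatidylserine genes it was 3.62 for Mfge8, 3.70 for Axl and 2.12 for Pros1. Ano6 (1.07, adjusted p = 0.0475, edgeR) and Stab2 (-4.59, adjusted p = 0.0372, edgeR) were called as well. The single calls of S100a1, Ano6 and Stab2 were not followed over the alternatives. The call of S100a4 was lost without any of 9 single libraries (all but marrow control 1, marrow AML 2 and lung control 3). That of Egfr was lost without marrow control 2, lung control 1 or 3, or lung AML 1 or 3, with log2 values of 1.36 to 1.59. That of Fpr1 was lost without any of the marrow controls, marrow AML 2, lung control 1 or 3, or lung AML 2 or 3, and with limma-voom. That of Serpine2 was lost without lung AML 3 (log2 1.72, adjusted p = 0.0501, edgeR).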

How the results depend on the processing

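Over 20 alternatives, Anxa1 to Anxa6 were called higher in marrow in 20 of 20, with log2 values of 3.13 to 3.87 for Anxa1, 2.33 to 2.90 for Anxa2 and 2.40 to 2.77 for Anxa6, and no annexin was called in lung. The annexins were chosen with results of these same libraries known. Their repeated calls therefore describe the dependence on processing only and are no further evidence. With library totals alone the median of all genes in marrow was 0.16 (-0.11 with TMM), with 4651 genes called higher and 2943 lower (3694 and 4263 with TMM), and Anxa1 to Anxa7 kept their direction. Partner genes called lower in marrow numbered 5, and 3 with library totals alone, a 5 CPM filter or limma-voom, 2 with the 6 libraries compared alone, and 3 to 5 leaving out single libraries. Those called higher in lung numbered 0, and 1 with the 5 CPM filter, DESeq2 or the 6 libraries alone, 2 with limma-voom, and 0 to 1 leaving out single libraries. Those called lower in lung numbered 1, and 3 with DESeq2, 5 with limma-voom, 2 with the replicate block or the 6 libraries alone, and 0 to 2 leaving out single libraries. The difference of AML effects was called higher in 17 partners, and in 11 to 17 leaving out single libraries (11 without lung AML 3). The replicate block gave 19 partners higher in marrow, against 22. Deviations from the group means were compared between same-numbered libraries. Between AML and control, r was -0.12, 0.02 and -0.10 in marrow and 0.15, -0.03 and -0.16 in lung. Between marrow and lung, r was 0.04, -0.01 and -0.04 in AML and 0.04, 0.18 and -0.01 in control. With 3 libraries per group, such values cannot settle whether a marrow and a lung library came from the same mouse. Leaving out single libraries, the fitted marrow log2 value of Serpinb2 (no bound, since its controls were at 0) ran between 0.00 without marrow AML 2 and 8.41 without marrow AML 1, and no other called gene lost its direction. Fpr1, Fpr2, Serpinb2 and Anxa13 rest on few counts.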
